A study of Mus musculus with 4 samples.

Results

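Formative and primed pluripotency factors were followed in mouse embryonic stem cells labelled as a knockout of Kdm2a and in wild-type cells. The 10 genes were fixed by name, and each was found by its Entrez gene number among the 24116 genes of the deposited count table: the secreted ligands Fgf5 and Wnt8a, and the transcription factors Otx2, Pou3f1, Sox3, Foxd3, Zic2, Zic5, Sall2 and Lef1. All cells were of the strain label 12910la and were grown in serum with LIF on gelatin. The group labelled knockout (KO 1 and KO 2) came from Kdm2a-/- cells expanded from a single clone, made by guide RNA transfection and sorting of GFP-positive cells, and its genotype label instead says that Kdm2a was knocked down. The wild-type group (WT 1 and WT 2) carries no listed allele, and the treatment text is attached to both groups alike. Each group had 2 libraries. Whether these were separate cultures is not stated, and the spread behind each p-value may be technical only.

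Naive embryonic stem cells, as in the blastocyst, pass through a formative state before they reach the primed state of the postimplantation epiblast and can then take up a lineage. On the way OTX2 and POU3F1 (OCT6) rise and work with OCT4 at new enhancers, FGF5 marks the early epiblast, and ZIC, SOX and FOXD proteins take part in the shift of the enhancer program. Cells in serum and LIF are a mixture in which some cells carry part of this program. KDM2A removes methyl groups from histone H3 lysine 36 and binds unmethylated CpG through its CXXC zinc finger.

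Total counts lay between 18844246 and 19056529 per library, so the limit behind a count of 0 (3 counts) was 0.156 to 0.165 CPM, the library-scaled read count after TMM normalisation. Such limits cover counting error only. Kdm2a had 3710 and 4753 counts in KO 1 and KO 2, against 2899 and 3554 in WT 1 and WT 2, a log2 fold change of 0.44 (SE 0.24, adjusted p = 1.00 by edgeR's quasi-likelihood test). Its RNA was thus not lower in the libraries labelled knockout, and directions rest on the labels alone. Stem cell markers were present in all libraries: the 10 fixed markers, among them Pou5f1, Sox2 and Nanog, were all tested and summed to 7004 and 5716 CPM in KO 1 and KO 2 and to 6682 and 6457 CPM in WT 1 and WT 2.

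Because KDM2A recognises CpG, promoter windows are shown for some of the 6 members whose windows were used. Of these 6, Fgf5 was the richest in CpG and Sall2 the poorest, by the most CpG-rich window of each. Foxd3, a single-exon gene, and Zic5, a zinc finger gene, differed widely between libraries. Each window runs from 250 bases before to 50 bases after a RefSeq transcription start in GRCm38.p6, the assembly behind mm10. Bases are in lower case and every CpG is in capitals. The windows lie at chr5:98253934-98254233 (plus strand) for Fgf5, chr4:99656049-99656348 (plus strand) for Foxd3, chr14:122465609-122465908 (minus strand) for Zic5 and chr14:52316274-52316573 (minus strand) for Sall2.
Fgf5: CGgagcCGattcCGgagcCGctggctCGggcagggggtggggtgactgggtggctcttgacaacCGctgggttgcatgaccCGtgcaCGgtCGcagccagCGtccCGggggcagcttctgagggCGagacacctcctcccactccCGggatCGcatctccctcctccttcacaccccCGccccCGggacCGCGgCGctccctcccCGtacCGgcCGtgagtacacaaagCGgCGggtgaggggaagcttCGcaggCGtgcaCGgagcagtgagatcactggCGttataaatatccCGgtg
Foxd3: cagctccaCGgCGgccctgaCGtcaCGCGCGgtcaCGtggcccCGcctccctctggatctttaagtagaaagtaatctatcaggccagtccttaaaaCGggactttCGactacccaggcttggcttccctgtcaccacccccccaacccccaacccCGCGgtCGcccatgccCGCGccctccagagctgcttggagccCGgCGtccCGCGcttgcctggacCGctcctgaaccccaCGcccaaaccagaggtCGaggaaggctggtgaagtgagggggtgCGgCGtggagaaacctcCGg
Zic5: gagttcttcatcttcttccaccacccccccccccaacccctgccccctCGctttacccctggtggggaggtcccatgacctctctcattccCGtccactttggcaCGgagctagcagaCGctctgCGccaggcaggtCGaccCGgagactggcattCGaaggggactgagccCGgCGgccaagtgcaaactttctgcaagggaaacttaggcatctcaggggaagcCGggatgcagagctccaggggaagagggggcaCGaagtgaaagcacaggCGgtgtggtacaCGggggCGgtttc
Sall2: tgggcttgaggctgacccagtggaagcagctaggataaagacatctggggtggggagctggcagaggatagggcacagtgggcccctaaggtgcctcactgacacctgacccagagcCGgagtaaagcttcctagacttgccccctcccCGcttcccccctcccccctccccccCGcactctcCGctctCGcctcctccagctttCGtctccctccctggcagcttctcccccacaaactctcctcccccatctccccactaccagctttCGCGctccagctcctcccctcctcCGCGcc

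RefSeq windows of 6 of the 10 members were used, 13 windows in all. Windows on chromosome 18, where Wnt8a lies, were left out for the members but kept among all 32851 windows. In the window of each member with the most CpG, there were 29 CpG for Fgf5, 25 for Foxd3, 21 for Lef1, 16 for Otx2, 15 for Zic5 and 10 for Sall2, where the median of all 32851 windows was 7 and the upper quartile 20. Fgf5 thus had more CpG than 87.1% of windows and Sall2 more than 56.5%. These shares are uneven, since each factor stands by its richest window and the background holds every window of a gene. The other start of Sall2, upstream, had 1 CpG. Otx2 and Lef1 each had 4 annotated starts, with 6 to 16 CpG for Otx2 and 5 to 21 for Lef1.

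**Figure D1:**
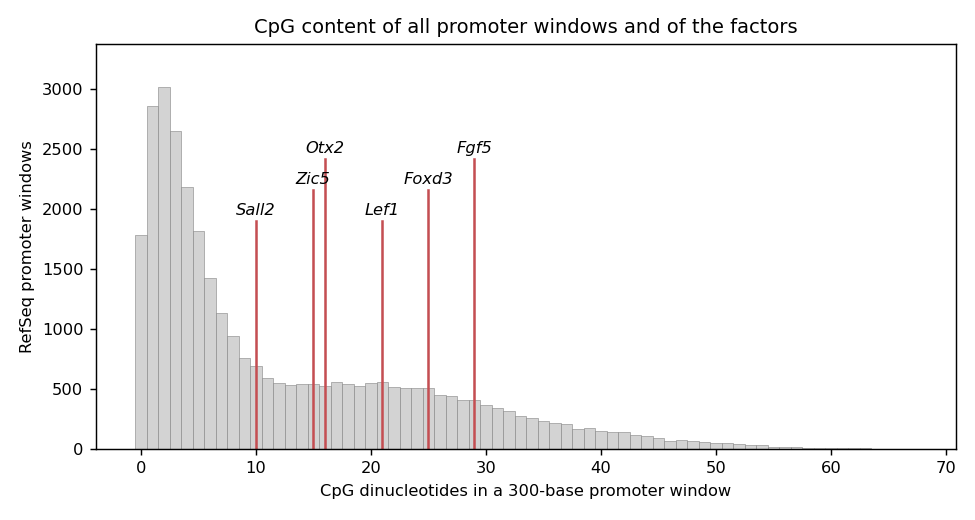
Number of CpG dinucleotides in 300-base promoter windows: grey bars count all 32851 RefSeq windows (y axis), and red lines mark the most CpG-rich window of each of 6 factors, with line heights chosen for legibility. Sall2, at 10, is the lowest of the 6 and Fgf5, at 29, the highest. All 6 lie above the median of 7, which was taken over every window and not over the richest of each gene.

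The windows were searched on both strands for short motifs of the members' own families. TAATCC, the OTX core, was in 1 of the 13 windows, at Otx2, and in 7.06% of all windows. CAGCAGG, a ZIC-type motif, was in 2, both at Lef1, whose starts overlap so that it is the same stretch, and in 10.5% of all windows. CTTTGAT and CTTTGAA (LEF/TCF), ATGCAAAT (POU), TGTTTAC (FOX) and ACAATGG (SOX) were in 0 of the 13 windows, and in 3.73%, 5.14%, 1.74%, 3.65% and 3.66% of all windows. CAGCAGG does not overlap the other motifs at Lef1, since none of them was found there.

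Set per kilobase of exon, the factors spanned a wide range of levels. Zic2 was highest by its mean over the 4 libraries, at 8.44 and 37.8 CPM per kb in KO 1 and KO 2 and 11.0 and 29.2 in WT 1 and WT 2, although Foxd3, at 10.7 CPM per kb, was above it in KO 1. Foxd3, Otx2, Zic5, Pou3f1, Sox3, Sall2 and Lef1 followed in the same order of means, from 12.9 CPM per kb for Foxd3 to 1.20 for Lef1, and Fgf5 (0.247) and Wnt8a (0.183) came last, with Fgf5 above Wnt8a in KO 2 only. Pou3f1 and Sox3 was the only pair of neighbours in this order whose ranges over the 4 libraries did not overlap. Pou5f1, the gene of OCT4, stood at 478 and 410 CPM per kb in KO 1 and KO 2 and 474 and 361 in WT 1 and WT 2, far above every one of the 10.

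Within their families the factors held different places. Per kilobase, Foxd3 made up 97.6% to 99.6% of the FOXD genes listed, Otx2 96.4% to 99.9% of the OTX genes and Pou3f1 88.7% to 98.4% of the POU3 genes in each library. Sox3 made up 0.421% to 0.546% of SOXB1, where Sox2 leads, Sall2 0.687% to 1.34% of the SALL genes, where Sall1 leads, and Lef1 0.631% to 3.65% of LEF/TCF. In that family Tcf7 led in 3 libraries and Tcf7l1 in KO 2, at 27.9 CPM per kb against 23.1 for Tcf7. These families share sequence, mostly in their DNA-binding domains, and how reads matching several genes were counted is not given in the sources used here.

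**Figure D2:**
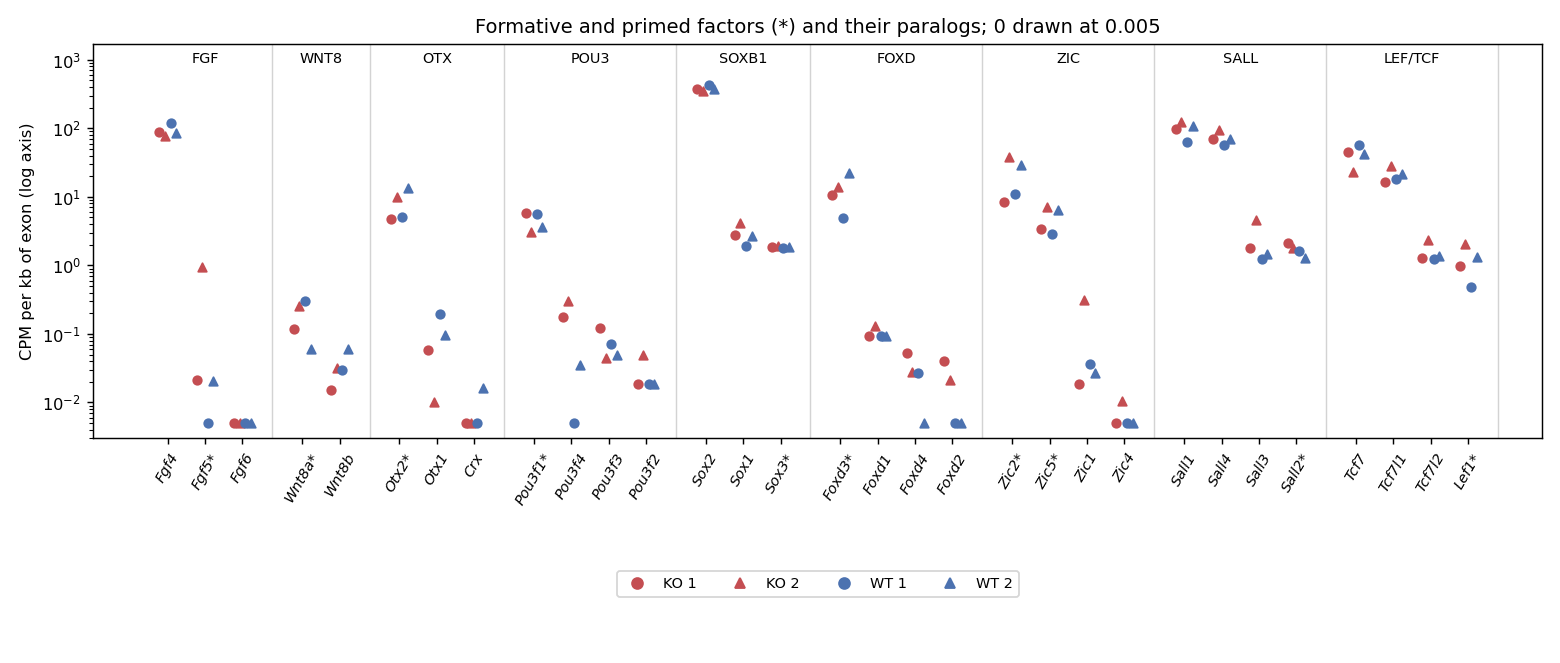
CPM per kilobase of GENCODE exon (log axis) for the 10 factors, marked *, and their listed paralogs, with 1 point per library (red KO, blue WT, circles for number 1, triangles for number 2). Foxd3, Otx2 and Pou3f1 stand far above their paralogs, whereas Sox3, Sall2 and Lef1 lie below Sox2, Sall1 and Tcf7.

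Of the 10 factors, 8 passed the filter on low counts, and 0 of these 8 passed the test between the labels, where 0% of all 14194 genes tested did (edgeR quasi-likelihood, adjusted p under 0.05). Every tested factor had an adjusted p of 1.00. At an unadjusted p under 0.05 there were 0 of 8 factors and 242 genes in all, or 1.7%. DESeq2 and the edgeR likelihood ratio test also called 0 of the 8. The median log2 fold change was 0.12 over the 8, beside 0.0029 over all tested genes, and 5 of the 8 were positive, beside 50.5% of all genes.

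Fgf5, a secreted FGF and the usual marker of the postimplantation epiblast (chromosome 5, 98254184 to 98277033, 2 to 3 exons by transcript), was counted in numbers in a single library. It had 1 count in KO 1 and 43 in KO 2 (95% exact Poisson interval 31.1 to 57.9), against 0 in WT 1 and 1 in WT 2. KO 2 alone was high, and KO 1 was at the level of wild type. The ratio of KO 2 to KO 1 was 45.2 in CPM (95% exact interval 7.70 to 1828), and that of KO 1 to both wild-type libraries was 2.01 (0.0256 to 158). Fgf5 did not pass the filter. With no filter its log2 fold change was 5.20 (adjusted p = 0.997, edgeR quasi-likelihood), a value that rests on KO 2.

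Some lineage markers were also highest in the library with Fgf5, while others were lowest there. Over all 24116 genes, 5 had no more than 1 count in each of the other 3 libraries and at least 43 in KO 2, namely Fgf5, Foxa2, Kcna2, Lhx9 and Tspan10, and 0 genes had such a pattern with any other library as the high one. The limit of 43 was the count of Fgf5 itself in KO 2, and its other counts were 0 or 1, so Fgf5 meets this rule by construction. These genes were picked after their values were seen. Foxa2, an endoderm factor, had 1 and 59 counts in KO 1 and KO 2 and 1 and 0 in WT 1 and WT 2. The 8 primitive streak and mesoderm markers (3 tested) summed to 15.5 and 31.5 CPM in KO 1 and KO 2 and to 18.1 and 21.6 in WT 1 and WT 2. The 8 primitive endoderm markers (6 tested) gave 12.0 and 20.0 CPM in KO 1 and KO 2 and 15.0 and 7.62 in WT 1 and WT 2. The 8 neural markers (4 tested) gave 112 and 142 CPM in KO 1 and KO 2 and 84.0 and 116 in WT 1 and WT 2, with Neurog2 at 0 in every library. For the 8 trophoblast markers (6 tested) the sums were 74.4 and 117 CPM in KO 1 and KO 2 and 109 and 64.5 in WT 1 and WT 2. The 8 fibroblast markers (3 tested) gave 300 and 622 CPM in KO 1 and KO 2 and 297 and 309 in WT 1 and WT 2, of which Vim made up 263 and 602 CPM in KO 1 and KO 2 and 252 and 288 in WT 1 and WT 2, while Lum was at 0 throughout. The 2-cell-like markers (7 in the table, 6 tested) gave 20.4 and 4.23 CPM in KO 1 and KO 2 and 10.7 and 20.5 in WT 1 and WT 2. The sum was thus highest in KO 2 for the first 5 of these lists and lowest for the 2-cell-like list. All 7 of the 2-cell-like markers were lowest in KO 2. The sum of the 10 stem cell markers was also lowest in KO 2, at 5716 CPM, with 5 of the 10 lowest and 2 highest there. For the first 5 lists, a single gene carried some of the sums. Without Vim the fibroblast markers gave 36.6 and 20.0 CPM in KO 1 and KO 2 and 45.5 and 20.7 in WT 1 and WT 2, so that KO 2 was lowest. Without Tfap2c the trophoblast markers gave 30.8 and 42.4 CPM in KO 1 and KO 2 and 42.5 and 41.4 in WT 1 and WT 2. Eomes is in both the streak and the trophoblast list. Without Eomes the streak markers were nearly level, at 5.17 and 5.61 CPM in KO 1 and KO 2 and 5.33 and 4.98 in WT 1 and WT 2. The endoderm sum without Gata4 and the neural sum without Tubb3 stayed highest in KO 2. Gene by gene, 17 of the 37 counted markers of these 5 lists (45.9%) were highest in KO 2 and 8 (21.6%) lowest, where KO 2 was highest for 33.6% and lowest for 33.4% of all tested genes. These sets are unlike, since the 37 hold every marker with any count, also those too low to be tested. Elf5, with 1 count in every library, was highest in KO 2 by library scaling alone. Among the markers lowest in KO 2 were Col1a1, a collagen, with 100 and 38 counts in KO 1 and KO 2 and 169 and 82 in WT 1 and WT 2, and Pdgfra, a receptor of the primitive endoderm, with 42 and 28 in KO 1 and KO 2 and 43 and 32 in WT 1 and WT 2. The part of these markers in the Fgf5 count was not tested. In bulk RNA, more cells of a type and more RNA per cell cannot be told apart.

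Wnt8a, a WNT ligand of the primitive streak (chromosome 18, 34542327 to 34548061, 6 exons), was near the floor everywhere. It had 4 and 8 counts in KO 1 and KO 2, against 10 and 2 in WT 1 and WT 2. The groups overlapped, the 95% exact Poisson intervals of the highest and lowest counts (4.80 to 18.4 and 0.242 to 7.22) overlapped as well, and no difference was detectable at this depth. Its paralog Wnt8b had 1 and 2 counts in KO 1 and KO 2 and 2 and 4 in WT 1 and WT 2.

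Otx2, a homeodomain factor that drives the exit toward the formative state (chromosome 14, 48656781 to 48667644, 3 to 6 exons), had 384 and 757 counts in KO 1 and KO 2, against 416 and 1084 in WT 1 and WT 2. The libraries numbered 2 were high and those numbered 1 low in both groups, so that the groups overlapped. The group means were 30.8 ± 15.2 CPM in the libraries labelled knockout and 39.0 ± 24.4 CPM in wild type (SD, n = 2 each). The log2 fold change was -0.34 (SE 0.52), and its direction turned without WT 2 (0.51) and without KO 1 (0.09). The antisense RNA Otx2os1, annotated 1644 bases away, had 0 and 1 counts in KO 1 and KO 2 and 0 and 2 in WT 1 and WT 2, too few to add to Otx2.

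Foxd3, a single-exon forkhead gene needed for the maintenance and transition of pluripotent cells (chromosome 4, 99656299 to 99658671), had 478 and 584 counts in KO 1 and KO 2, against 220 and 989 in WT 1 and WT 2. Both libraries labelled knockout lay between the wild-type libraries, which were 4.46-fold apart. Its log2 fold change was -0.14 (SE 0.62). The sign turned without WT 2 (1.32), without KO 1 (0.03), with limma-voom and with a block on the replicate number.

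Zic2, a zinc finger factor found at enhancers of pluripotent cells and a regulator of forebrain development (chromosome 14, 122475384 to 122480328, 3 exons), was, of the 8 tested factors, the one that differed most between KO 1 and KO 2. It had 465 and 1979 counts in KO 1 and KO 2, against 608 and 1624 in WT 1 and WT 2. KO 1 was the lowest and KO 2 the highest of the 4, with both wild-type libraries between them. The means were 66.6 ± 59.8 CPM in the libraries labelled knockout and 58.0 ± 37.1 CPM in wild type (SD, n = 2 each), and the log2 fold change was 0.20 (SE 0.70), which became -0.34 without WT 1 and -1.26 without KO 2.

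Zic5, which lies 9726 bases from Zic2 on the opposite strand (122459160 to 122465658, 2 exons), followed the same order of libraries by number. It had 315 and 639 counts in KO 1 and KO 2, against 265 and 608 in WT 1 and WT 2. The groups overlapped, with a log2 fold change of 0.18 (SE 0.51) that became -0.29 without WT 1 and -0.46 without KO 2. Zic2 exceeded Zic5 per kilobase by 2.51-fold and 5.26-fold in KO 1 and KO 2 and by 3.89-fold and 4.53-fold in WT 1 and WT 2.

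A noncoding RNA of this locus had the same order by number, with both libraries numbered 2 above both numbered 1, as had 24.2% of all tested genes. 2610035F20Rik, which lies between Zic5 and Zic2 and 185 bases from Zic2, had 39 and 118 counts in KO 1 and KO 2, against 18 and 133 in WT 1 and WT 2. Pcca, a mitochondrial carboxylase subunit on the other side of Zic2, did not share the order, with 427 and 372 counts in KO 1 and KO 2 and 559 and 484 in WT 1 and WT 2. Nor did Clybl, a mitochondrial lyase beyond Zic5, with 473 and 538 counts in KO 1 and KO 2 and 636 and 590 in WT 1 and WT 2. No strand setting is given in the sources used here, so any reads running from Zic2 into its neighbour cannot be told apart from reads of that RNA.

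Lef1, the DNA-binding partner of beta-catenin in WNT signalling (chromosome 3, 131110297 to 131224357, 10 to 12 exons), had the largest log2 fold change of the 8 tested factors. It had 167 and 323 counts in KO 1 and KO 2, against 81 and 224 in WT 1 and WT 2. Each library labelled knockout exceeded the wild-type library of the same number, but KO 1 lay below WT 2, so the groups overlapped. The means were 13.2 ± 6.39 CPM in the libraries labelled knockout and 7.92 ± 5.22 CPM in wild type (SD, n = 2 each). The log2 fold change of 0.74 (SE 0.59) missed the threshold (unadjusted p = 0.247, adjusted p = 1.00, edgeR quasi-likelihood), and it was 0.19 without WT 1, 1.65 without WT 2, 1.16 without KO 1 and 0.14 without KO 2.

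Pou3f1, the POU factor also called OCT6 and a partner of OTX2 in the formative state (chromosome 4, 124657646 to 124660655, 1 exon), ran the other way by number. It had 423 and 216 counts in KO 1 and KO 2, against 410 and 269 in WT 1 and WT 2. Here the libraries numbered 1 were high in both groups. The log2 fold change was -0.06 (SE 0.42), with means of 17.0 ± 7.23 CPM in the libraries labelled knockout and 17.7 ± 5.29 CPM in wild type (SD, n = 2 each), and it turned to 0.29 without WT 1 and to 0.33 without KO 2.

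Sox3, a SOXB1 factor of the epiblast and neural progenitors (chromosome X, 60891366 to 60893430, 1 exon), hardly varied. It had 73 and 73 counts in KO 1 and KO 2, against 72 and 73 in WT 1 and WT 2. A count of 73 has a 95% exact Poisson interval of 57.2 to 91.8, so the 4 libraries agree within sampling noise. In CPM both libraries labelled knockout were above both wild-type libraries by a margin far inside that noise, with a log2 fold change of 0.05 (SE 0.46).

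Sall2, a zinc finger factor of the SALL family (chromosome 14, 52311177 to 52328670, 2 exons), had 217 and 175 counts in KO 1 and KO 2, against 171 and 132 in WT 1 and WT 2. In CPM the groups did not overlap, at 11.3 and 9.62 CPM in KO 1 and KO 2 and 8.94 and 6.84 CPM in WT 1 and WT 2. The log2 fold change, 0.41 (SE 0.38), missed the threshold (unadjusted p = 0.321, adjusted p = 1.00, edgeR quasi-likelihood) and was positive in every fit that left out a library, from 0.24 to 0.61. Sall2 and Sox3 were the 2 of 8 factors with both libraries labelled knockout above both wild-type libraries, a pattern of 11.7% of all tested genes, and 0 of 8 had both below, a pattern of 12.7%.

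**Figure D3:**
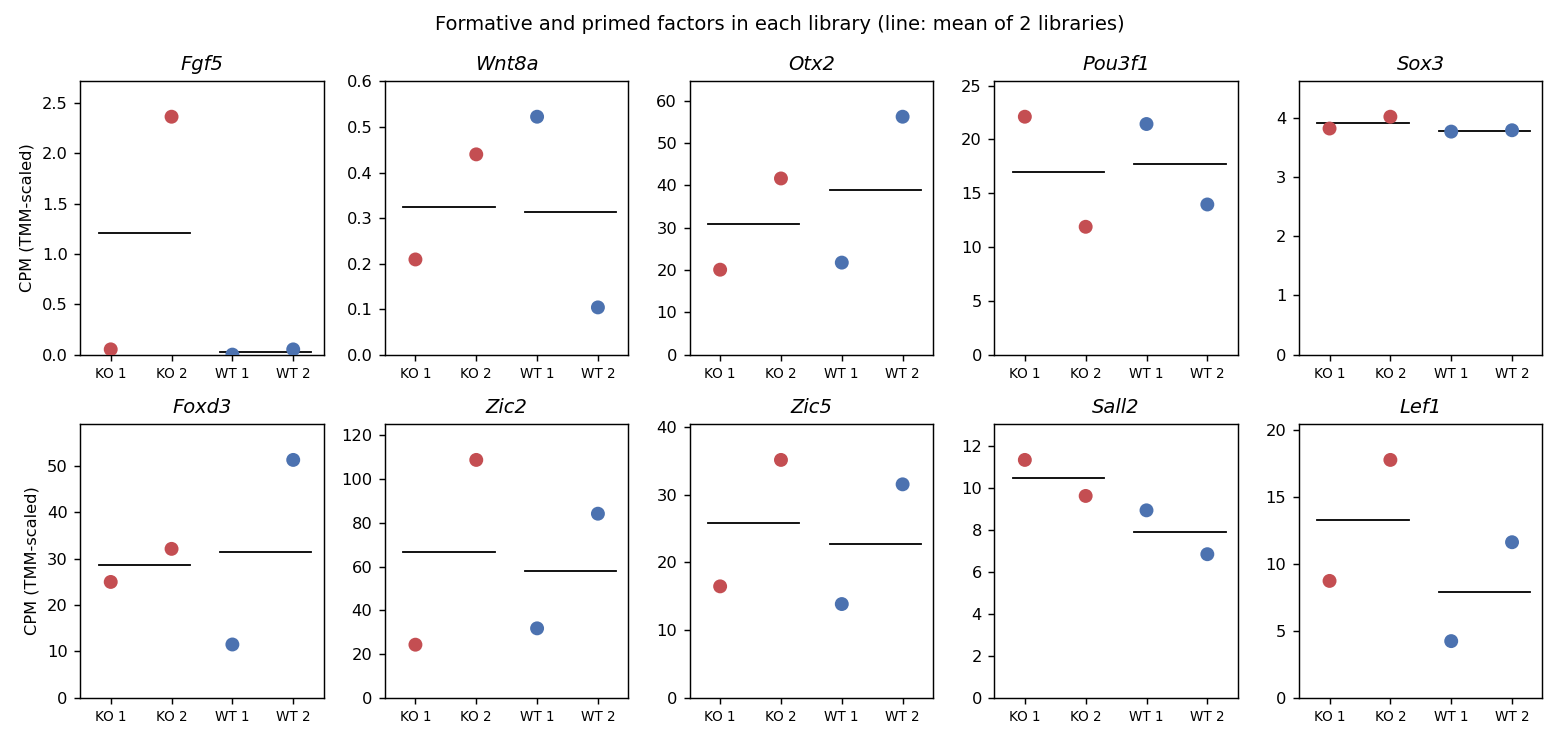
TMM-scaled CPM (y axis, from 0) of each of the 10 factors in KO 1, KO 2, WT 1 and WT 2, with a line at the mean of each pair. Otx2, Foxd3, Zic2, Zic5 and Lef1 are higher in the libraries numbered 2 in both groups, Pou3f1 is lower there, Sox3 is level, and Fgf5 stands out in KO 2 only.

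For most of the factors the larger differences thus lay between libraries of 1 label. This was looked at after the values were seen. WT 2 exceeded WT 1 by 2.59-fold for Otx2, 2.65-fold for Zic2, 2.28-fold for Zic5, 2.74-fold for Lef1 and 4.46-fold for Foxd3. In the libraries labelled knockout, KO 2 exceeded KO 1 by 2.07-fold for Otx2, 4.48-fold for Zic2, 2.13-fold for Zic5, 2.04-fold for Lef1 and 1.29-fold for Foxd3. The median absolute log2 difference over the 8 factors was 0.95 between KO 2 and KO 1 and 1.27 between WT 2 and WT 1, against 0.39 and 0.34 over all tested genes, whereas between the labels it was 0.19 over the factors and 0.22 over all genes. These measures are unlike, since a difference of single libraries varies more than one of group means. Sall2 went the other way in size, with 0.41 between the labels, -0.23 for KO 2 minus KO 1 and -0.38 for WT 2 minus WT 1.

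The same 5 factors had both libraries numbered 2 above both numbered 1, which held for 24.2% of all tested genes, and Pou3f1 had both below, which held for 25.9%. WT 2 was over 1 log2 above WT 1 for 5 of the 8 factors and 4.77% of all tested genes, and KO 2 over 1 log2 above KO 1 for 4 of the 8 and 7.98%. A difference over 1 on the log2 scale in both labels was found for 4 of the 8 factors (Otx2, Zic2, Zic5 and Lef1) and for 1.7% of all genes. The 10 factors together summed to 132 and 264 CPM in KO 1 and KO 2 and to 118 and 260 CPM in WT 1 and WT 2. Of these sums Zic2 alone made up 24.3 and 109 CPM in KO 1 and KO 2 and 31.8 and 84.2 CPM in WT 1 and WT 2. Nothing in the labels says what libraries of 1 number share, and the part of a shared culture, day or sequencing run in these values was not tested.

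**Figure D4:**
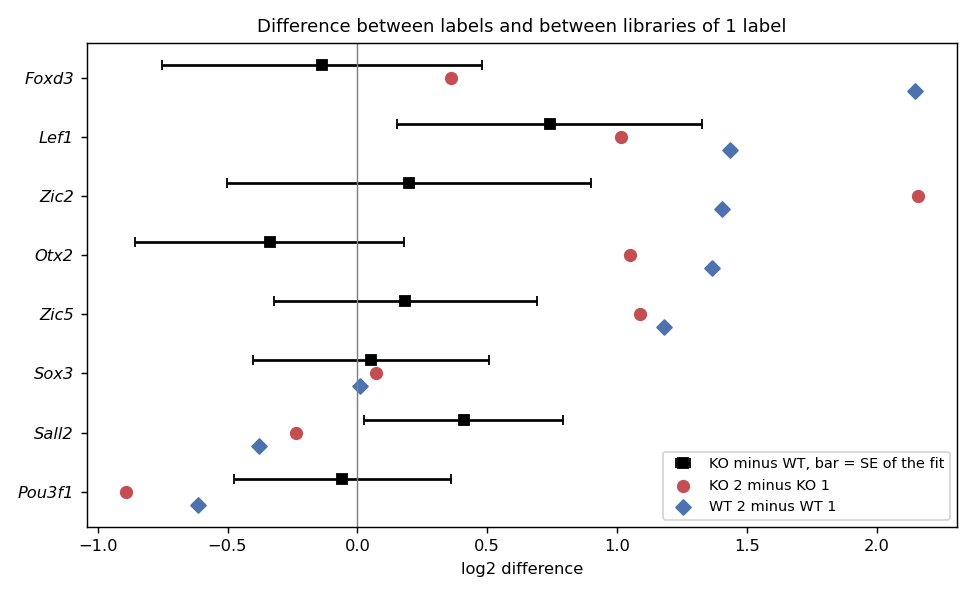
Log2 differences for the 8 tested factors: black squares give the fitted fold change of KO minus WT with its SE, red circles KO 2 minus KO 1 and blue diamonds WT 2 minus WT 1. For Otx2, Zic2, Zic5 and Lef1 both within-label differences exceed 1, and the fold changes between the labels reach at most 0.74 in size, for Lef1.

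Other genes of the formative and primed program did not pass between the labels. In a further list of 24 such genes, 22 were tested, and 0 were called higher and 0 lower. Of the 22, 15 were positive and 7 negative, beside 50.5% positive over all tested genes. The median log2 fold change was 0.11, beside 0.0029 over all tested genes, and a shift of the list as a whole was not tested. Both libraries numbered 2 were above both numbered 1 for 3 of the 22 and below for 6, beside 24.2% and 25.9% of all tested genes. Rbpj, the DNA-binding effector of Notch, had 9512 and 10430 counts in KO 1 and KO 2 and 8315 and 14912 in WT 1 and WT 2, and Etv5, an ETS factor, 12077 and 9375 in KO 1 and KO 2 and 8486 and 12003 in WT 1 and WT 2. The lowest unadjusted p in the list was that of Trh, the gene of thyrotropin-releasing hormone, at 6315 and 22130 counts in KO 1 and KO 2 and 4496 and 8091 in WT 1 and WT 2 (log2 fold change 1.24, SE 0.58), followed by Krt18, a keratin, with 168 and 99 counts in KO 1 and KO 2 and 303 and 206 in WT 1 and WT 2 (-0.90, SE 0.43).

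Genes of the naive state, listed together with the general pluripotency genes Pou5f1 and Sox2, were split evenly. All 18 were tested, 0 passed in either direction, 9 were positive and 9 negative, with a median of 0.0094. By number, 6 of the 18 were above and 3 below in the libraries numbered 2. Over all tested genes these shares were 24.2% and 25.9%, and the difference was not tested. Esrrb, an orphan nuclear receptor, had 21203 and 20718 counts in KO 1 and KO 2 and 18327 and 19768 in WT 1 and WT 2, and Pou5f1 20545 and 16769 in KO 1 and KO 2 and 20403 and 15654 in WT 1 and WT 2. Tbx3, a T-box factor, was at 0.41 (SE 0.23), and Dppa3, which protects maternal methylation marks, had 29 and 4 counts in KO 1 and KO 2 and 44 and 40 in WT 1 and WT 2 (-1.32, SE 0.86).

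FGF receptors and ERK feedback genes did not pass between the labels. Of 9 tested, 0 passed in either direction, and the median was 0.04. Both libraries numbered 2 were above both numbered 1 for 6 of the 9 and below for 2, beside 24.2% and 25.9% of all tested genes, a difference that was not tested. Spry4, an ERK feedback inhibitor, had 7290 and 7893 counts in KO 1 and KO 2 and 3224 and 12004 in WT 1 and WT 2. Fgfr1, the main receptor in these cells, had 2813 and 2330 in KO 1 and KO 2 and 3173 and 2184 in WT 1 and WT 2. Egr1, an immediate early gene of ERK, was high in WT 2 alone, at 682 and 690 counts in KO 1 and KO 2 and 555 and 4311 in WT 1 and WT 2 (-1.78, SE 0.79), and Fgfr2 was high in KO 2 alone, at 85 and 527 counts in KO 1 and KO 2 and 93 and 111 in WT 1 and WT 2 (1.65, SE 0.79).

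**Figure D5:**
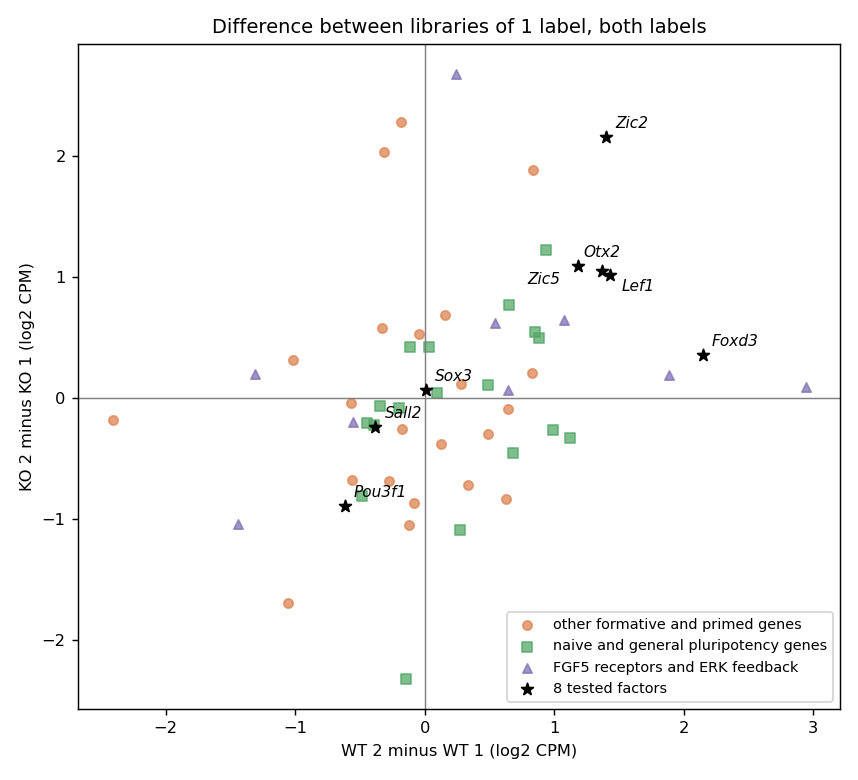
Log2 difference between the libraries of 1 label, WT 2 minus WT 1 (x axis) against KO 2 minus KO 1 (y axis), for the 8 tested factors (black stars) and 3 related lists (coloured points). Zic2, Zic5, Otx2 and Lef1 lie at over 1 on both axes, Sox3 near the origin and Pou3f1 at the lower left.

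Genes that pass the WNT signal to LEF1 and genes that LEF1 acts on did not pass either. Of 12 reception genes and partners tested, 0 were called in either direction, 9 were positive and the median was 0.17. Ctnnb1, which encodes beta-catenin, had 15982 and 18620 counts in KO 1 and KO 2 and 14421 and 14971 in WT 1 and WT 2, and Apc, a scaffold of its destruction complex, 3716 and 4372 in KO 1 and KO 2 and 3118 and 4232 in WT 1 and WT 2. Fzd7, a WNT receptor, was at 0.80 (SE 0.39), with 2746 and 5720 counts in KO 1 and KO 2 and 2983 and 2078 in WT 1 and WT 2, and Tcf7, which encodes TCF1, at -0.54 (SE 0.35). Of 8 targets tested, 0 were called in either direction, 6 were positive and the median was 0.31. Over all tested genes 50.5% were positive and the median was 0.0029, and a shift of either list was not tested. Axin2, a feedback target, had 809 and 723 counts in KO 1 and KO 2 and 546 and 564 in WT 1 and WT 2 (0.51, SE 0.25), and Ccnd1, the gene of cyclin D1, was at 0.30 (SE 0.28).

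Among the paralogs 10 of 21 were tested, 0 passed in either direction and the median was 0.26. Sox2 had 14526 and 13090 counts in KO 1 and KO 2 and 16890 and 14803 in WT 1 and WT 2, and Sall1 9842 and 11919 in KO 1 and KO 2 and 6366 and 11145 in WT 1 and WT 2. Sall3 had the lowest p (unadjusted p = 0.0344, adjusted p = 1.00 by the quasi-likelihood test) at 1.25 (SE 0.48), with 260 and 627 counts in KO 1 and KO 2 and 179 and 208 in WT 1 and WT 2. Otx1 was at -2.03 (SE 0.95), with 6 and 1 counts in KO 1 and KO 2 and 20 and 10 in WT 1 and WT 2.

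The profile nearest to each factor was taken over the 4 libraries among 74 tested genes of these lists, by the root mean square difference of centred log2 CPM. Foxd3 was nearest to Spry4 (0.12), Zic5 and Zic2 to Nr0b1, the gene of DAX1 (0.14 and 0.42), Otx2 to Klf5 (0.27), Lef1 to Notum, a WNT feedback enzyme (0.24), Pou3f1 to Socs3, a LIF feedback inhibitor (0.12), Sall2 to Sox4 (0.090) and Sox3 to Lrp6 (0.032). Otx2 and Zic2 each lay nearer still to another of the factors, Zic5 (0.25 and 0.40). With 4 libraries such likeness is a description only.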

How the data were processed

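RNA-seq libraries of mouse embryonic stem cells were built from total RNA by random-primed cDNA synthesis and sequenced on a BGISEQ instrument, per the labels' protocols. The authors deposited whole-number read counts per gene without normalization. The tools HISAT2 and featureCounts and the build mm10 come from the submitters' processing notes; their versions, the annotation, strandedness and treatment of multi-mapping reads were not given in the sources used here. Columns named control were taken as wild type by name and number. Of 24116 Entrez numbers, 24061 matched a RefSeq symbol (GRCm38.p6), and the other 55 held 0.0334% to 0.0439% of a library's counts.

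The test was run in edgeR 4.0.16 under R 4.3.3 (filterByExpr, TMM scaling, quasi-likelihood F test of genotype alone, Benjamini-Hochberg over 14194 genes, threshold 0.05). Fold changes (log2) put the knockout label over wild type, and the SE is the absolute value over the square root of F. Log2 CPM used a prior count of 2. CPM per kb used the union of GENCODE M21 exons, which may differ from the annotation counted. With 2 libraries against 2, an exact permutation test cannot go below p = 0.333, so none was run. Alternatives were 3 scalings, 2 filters, DESeq2 1.42.0, limma-voom 3.58.1, the likelihood ratio test, a stricter threshold (0.01), a replicate block and leaving out each library. The fit was also run on counts simulated with no effect of replicate number, and the outcome is not reported here.

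The members and gene lists were chosen with earlier results of these data known. All 10 members are named; of each related list, the 2 most abundant genes and the 2 with the lowest p are named where none passed. Genes named beyond this rule were chosen after their values were seen. The related lists were used without 1 gene, which is not reported here. Protein sequences were not used here.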

Additional observations from a re-analysis of the deposited data

How the results depend on the processing

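The count of 0 factors called did not change under the other scalings, filters, tools, the threshold of 0.01, the replicate block or any left-out library. The median log2 fold change of the 8 factors lay between 0.066 and 0.13 with all libraries and between -0.16 and 0.71 with a library left out. With all libraries, only Foxd3 and Zic2 changed sign, to 0.22 and -0.019 with limma-voom and to 0.20 and -0.0020 with the replicate block. With a library left out, the log2 fold change ran from -0.96 to 0.51 for Otx2, from -0.58 to 0.33 for Pou3f1, from -0.85 to 1.32 for Foxd3, from -1.26 to 1.07 for Zic2 and from -0.46 to 0.90 for Zic5. It kept its sign for Lef1 (0.14 to 1.65), Sall2 (0.24 to 0.61) and Sox3 (0.02 to 0.09). Fgf5, which could be fitted with all libraries only when no filter was used (5.20), ran from 4.37 to 7.51, and it failed the filter without KO 2. Wnt8a also failed the filter; its log2 fold change was 0.04 with no filter, -0.67 without WT 2 and -0.56 without KO 2. Where a library was left out, the lone library of its label was assumed to vary like the other pair. The cause of these changes was not tested.

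The replicate numbers are shared by the groups, but no label says what they pair. Over tested genes the difference of KO 2 minus KO 1 correlated with that of WT 2 minus WT 1 at r = 0.347, across genes, which are not independent replicates. With the replicate block 0 genes were called, and 735 had an unadjusted p under 0.05, against 242 without it. Lef1 was then at 0.82 (SE 0.31, unadjusted p = 0.0357, adjusted p = 0.888, edgeR quasi-likelihood). Over all genes, DESeq2 called 2, the likelihood ratio test 4, and the quasi-likelihood test 91 without KO 1 and 8 without KO 2, none of them a factor. Depth limits Wnt8a, at 2 to 10 counts a library, and Fgf5 outside KO 2.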
